A study of Mus musculus with 24 samples.

Results

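Gnrh1 (ENSMUSG00000015812) was 1 gene of the 57010 in each of 2 count tables, and it was found by its gene name and identifier in all 24 libraries. The gene encodes the precursor of gonadotropin-releasing hormone (GnRH), a short peptide that hypothalamic neurons release in pulses to drive the pituitary and, through it, the gonads. The precursor is cut by prohormone convertases and amidated before release, and its remaining part is known as GnRH-associated peptide. Mkrn3 belongs to the makorin family of ubiquitin ligases with zinc fingers, and its inactivation is a known cause of central precocious puberty. Whether RNA binding by Mkrn3 bears on the precursor made from Gnrh1 is the question named in the study's title.

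The cells were GT1-7, an immortalised mouse line derived from hypothalamic GnRH neurons, described in the labels as a neuronal culture. In the fractionation experiment, total RNA and cytoplasmic RNA were taken from unmodified cells (wt) and from cells with stable GFP-Mkrn3 (labelled Mkrn3ox), with 3 libraries in each of these 4 groups. In the RNA immunoprecipitation (RIP) experiment, cells were given 6 µg of a plasmid for GFP or for GFP-Mkrn3, and 24 h later the lysate was incubated with GFP-trap beads, which bind GFP. For each plasmid, RNA bound to the beads (IP) was read beside 5% of the lysate (input), again with 3 libraries a group. All libraries were made by CEL-seq2, which reads the 3' ends of polyadenylated RNA. The labels state neither whether the stable line is 1 clone nor whether each library is a culture of its own. The p-values below therefore measure the spread between these libraries alone, and that spread may be technical.

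The fractionation libraries held 374386 to 759271 counts and the RIP libraries 6254703 to 14575652, so Gnrh1 rested on 11 to 86 counts per library in the first experiment and on 449 to 3060 in the second. Mkrn3 itself had 28280 to 32451 counts in the GFP-Mkrn3 inputs against 36 to 60 in the GFP inputs, and 86579 to 141568 in the GFP-Mkrn3 IPs against 33 to 60 in the GFP IPs. In the fractionation experiment Mkrn3 had 0 counts in all 6 total RNA libraries and 0 to 5 in the cytoplasmic ones. The label Mkrn3ox was thus not borne out by this gene's counts. The strand of these counts is not stated, and whether they come from the strand of Mkrn3 was not tested. They therefore cannot decide whether the label holds. Of 8 neuron markers, 4 had a count in the RIP inputs, with a summed level of 70.0 to 86.9 CPM (counts rescaled so that libraries of unequal depth can be compared), and Snap25, Stmn2, Nefl and Nefm had none. Of 5 fibroblast markers, 4 had a count in the RIP inputs, with a summed level of 274 to 326 CPM, and of 5 astrocyte markers 3 had one (132 to 140 CPM), with Aqp4 and Slc1a3 at 0. In the same inputs endothelial markers had a count in 2 of 4 (209 to 235 CPM), immune markers in 3 of 5 (10.9 to 15.2 CPM) and oligodendrocyte markers in 2 of 5 (3.88 to 8.06 CPM). In wt total RNA, counts were seen for 4 of 8 neuron markers (12.5 to 50.2 CPM summed; Tubb3, Rbfox3, Nefl and Nefm at 0), 3 of 5 fibroblast markers (358 to 466 CPM) and 2 of 5 astrocyte markers (32.8 to 69.3 CPM). There, 1 of 5 immune markers (222 to 257 CPM), 1 of 4 endothelial markers (0 to 8.66 CPM) and 2 of 5 oligodendrocyte markers (1.32 to 17.3 CPM) had a count. The part of such markers in the results was not tested. Within the GFP-Mkrn3 IPs, libraries 2 and 3 were the least alike pair within any RIP group, with a chi-square per degree of freedom of 29.8 over genes.

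In the reference positions (GRCm38.p6, the mm10 build), Gnrh1 lies on chromosome 14 from 67745181 to 67749440, a span of 4260 bp that is shorter than that of most tested genes: 10.9% of the 11974 tested RIP genes with a position were shorter. Kctd9, a potassium channel tetramerisation domain gene, ends 2870 bp from it, and Dock5, a guanine nucleotide exchange factor for small GTPases, begins 2487 bp from its other end. A long non-coding RNA gene, Gm52126, overlaps the last 221 bp of the Gnrh1 span and was not counted separately in either table. The strand on which counts were taken is not stated, so reads from Gnrh1 and Gm52126 cannot be told apart. For a pair of genes known to lie on opposite strands, the order of counts was opposite in the 2 tables: Tsix had 1623 to 2266 counts and Xist 139 to 159 in wt total RNA, against 0 to 4 and 434 to 479 in the GFP inputs. The mitochondrially encoded mt-Nd6 had 92679 to 105541 counts in wt total RNA, against 9073 to 15731 in the deeper GFP inputs. Whether the fractionation counts of Gnrh1, or of any other gene named here, come from that gene's own strand was not tested. The fractionation values below are therefore those counted under each gene's name, and they may not measure its mRNA.

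Gnrh1 was among the more abundant RNAs of the RIP inputs, with a mean of 316 CPM and rank 517 of 13052 tested genes, and 96.0% of tested genes were lower. In wt total RNA it stood at rank 1477 of 5033, with 70.7% of tested genes lower. Levels in CPM were scaled with edgeR's TMM factors, which hold most genes level between libraries, and they are relative to the other RNAs of the same library. The 200 genes nearest to Gnrh1 in the RIP inputs had a median of 43.8 CPM in wt total RNA, where Gnrh1 had 74.7 CPM, both scaled by library size alone, and 136 of them were below it.

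**Figure D1:**
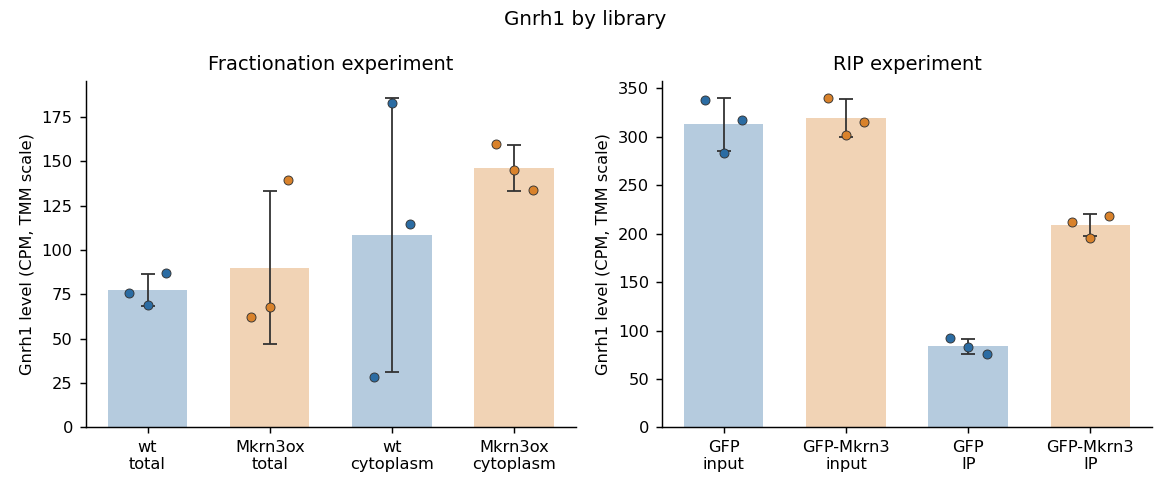
Gnrh1 level in CPM (vertical axis) in all 8 groups of the 2 experiments, with bars for group means, error bars for the SD over 3 libraries and points for single libraries. The RIP inputs lie near 313 and 319 CPM, the GFP-Mkrn3 IPs near 209 and the GFP IPs near 83.8, and the wt cytoplasm libraries are the most spread, from 28.5 to 183 CPM.

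Gnrh1 was below its input in both pull-downs, and the shortfall was larger with GFP than with GFP-Mkrn3. In the GFP inputs Gnrh1 stood at 338, 284 and 317 CPM, from 2357, 2454 and 2878 counts. In the GFP IPs it stood at 92.1, 83.2 and 76.2 CPM, from 717, 678 and 449 counts. All 3 GFP IPs were thus far under all 3 GFP inputs, with no overlap. The mean fell from 313 ± 27.5 to 83.8 ± 7.99 CPM (SD, n = 3), a log2 fold change of -1.90 (SE 0.0953, 95% interval -2.10 to -1.70) or 3.73-fold lower (3.25 to 4.28), with an adjusted p of 4.21e-11 by edgeR's quasi-likelihood test with Benjamini-Hochberg adjustment. In this comparison 25.2% of all tested genes were called lower and 25.1% higher, and Gnrh1 was at place 258 from the bottom, with 1.97% of tested genes below it. GFP alone is not known as an RNA-binding protein, and this pull-down was used as the control for beads and tag. Why RNAs differed from input in it was not tested.

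With GFP-Mkrn3 the inputs stood at 340, 302 and 315 CPM, from 2680, 2292 and 2742 counts. The IPs stood at 212, 196 and 219 CPM, from 2333, 3060 and 1947 counts. Again every IP was below every input, but the gap was smaller. The mean fell from 319 ± 19.4 to 209 ± 11.7 CPM (SD, n = 3), a log2 fold change of -0.61 (SE 0.0902, 95% interval -0.80 to -0.42) or 1.53-fold lower (1.34 to 1.74; edgeR adjusted p = 0.000108). Here 12.8% of tested genes were called lower and 13.9% higher, and 6.04% lay below Gnrh1. Gnrh1 was therefore not above input in the GFP-Mkrn3 pull-down. How much RNA each pull-down yielded was not analysed here, and a level in CPM does not give the amount.

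Set as a share of the mean input, Gnrh1 in the GFP IPs was at 29.4%, 26.6% and 24.3%, and in the GFP-Mkrn3 IPs at 66.5%, 61.4% and 68.5%. The lowest GFP-Mkrn3 IP was thus above the highest GFP IP. The means were 26.8% ± 2.55 and 65.4% ± 3.67 (SD, n = 3). Map1a, which encodes a microtubule-associated protein, was at 79.2% ± 5.78 of input with GFP and 63.6% ± 2.85 with GFP-Mkrn3. Rnf213, which encodes a large RING-type ubiquitin ligase, was at 227% ± 20.2 and 164% ± 11.5. BC005537 was at 98.6% ± 10.3 and 89.4% ± 9.80, and Prrc2b at 107% ± 9.95 and 87.8% ± 7.21. All 4 of these genes, the 2 nearest above and the 2 nearest below Gnrh1 in input level, had a lower mean share with GFP-Mkrn3 than with GFP on the TMM scale, while Gnrh1 had a higher one. By library size the order of BC005537 turned, to 91.4% with GFP and 94.6% with GFP-Mkrn3. In the test of the enrichment beyond GFP, Rnf213 (log2 -0.47, edgeR adjusted p = 0.00874) and Map1a (-0.32, adjusted p = 0.0421) were called lower, while Prrc2b (-0.29, adjusted p = 0.109) and BC005537 (-0.14, adjusted p = 0.47) did not pass. With library-size scaling the calls of Rnf213 and Map1a were lost, and that of Map1a was lost in 11 of 19 alternatives (adjusted p up to 0.0934 and 0.428).

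**Figure D2:**
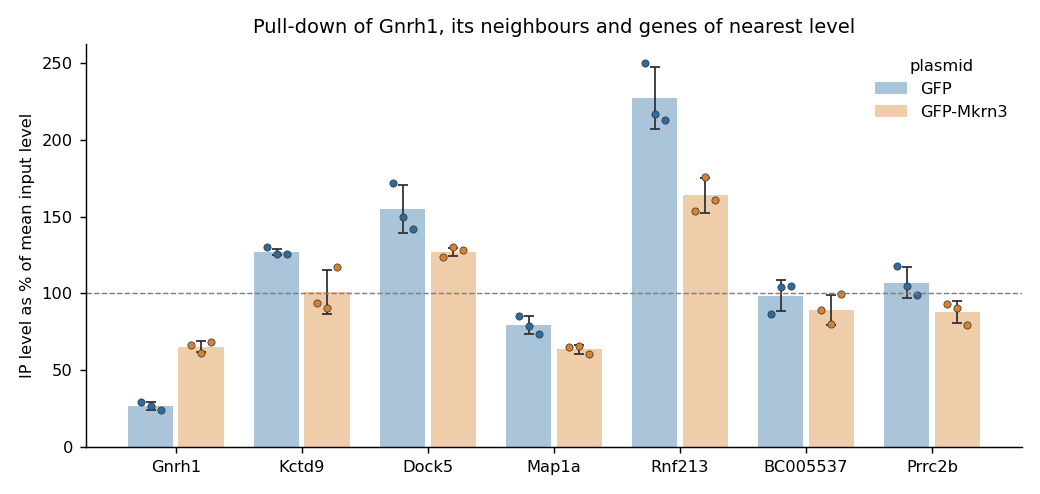
Level in each IP library as a percentage of the mean level in the inputs of the same plasmid (vertical axis) for Gnrh1, its genomic neighbours Kctd9 and Dock5, and the 4 genes nearest in input level, with bars for means, error bars for the SD over 3 libraries and points for libraries. Gnrh1 has means of 26.8% with GFP and 65.4% with GFP-Mkrn3, and the other 6 genes have a higher mean with GFP than with GFP-Mkrn3 on this TMM scale, an order that turns for BC005537 by library size (91.4% and 94.6%).

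The inputs of both plasmids held like levels of Gnrh1, and their libraries interleaved. The log2 fold change between them was 0.03 (SE 0.0898, 95% interval -0.16 to 0.22), which did not pass the test (edgeR adjusted p = 0.984), in a comparison where 0.0153% of tested genes were called. The interval leaves room for a difference of up to 0.22 on the log2 scale. In bulk RNA, fewer cells that make Gnrh1 and less Gnrh1 RNA per cell cannot be told apart.

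Between the IPs, Gnrh1 was 2.49-fold higher with GFP-Mkrn3 than with GFP (2.17 to 2.85), a log2 fold change of 1.31 (SE 0.0942, 95% interval 1.12 to 1.51; edgeR adjusted p = 2.68e-08). All 3 GFP-Mkrn3 IPs were above all 3 GFP IPs. It ranked 485 of 13052 from the top, in a comparison where 20.4% of tested genes were called higher and 17.2% lower. Set against the inputs of each plasmid, the difference between the pull-downs (called enrichment beyond GFP) was 1.29 on the log2 scale (SE 0.130, 95% interval 1.02 to 1.56), or 2.44-fold (2.02 to 2.95; edgeR adjusted p = 5.14e-06). For this comparison 13.2% of tested genes were called higher and 11.1% lower, and Gnrh1 ranked 741 from the top. Both comparisons and the single pull-downs share libraries, so they are not separate lines of evidence. With scaling by library size in place of TMM, the median of all tested genes moved from 0.03 to 0.21 between the IPs and from 0.04 to 0.23 for the enrichment beyond GFP, and the calls from 2661 higher and 2246 lower to 4104 and 1154, and from 1724 and 1454 to 2845 and 603. Relative to that median, Gnrh1 stood at 1.25 under either scaling for the enrichment beyond GFP, and at 1.285 under either between the IPs. The same scaling changed the calls for IP against input from 3274 higher and 3291 lower to 2554 and 3952 with GFP, and from 1812 and 1675 to 2599 and 1263 with GFP-Mkrn3.

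**Figure D3:**
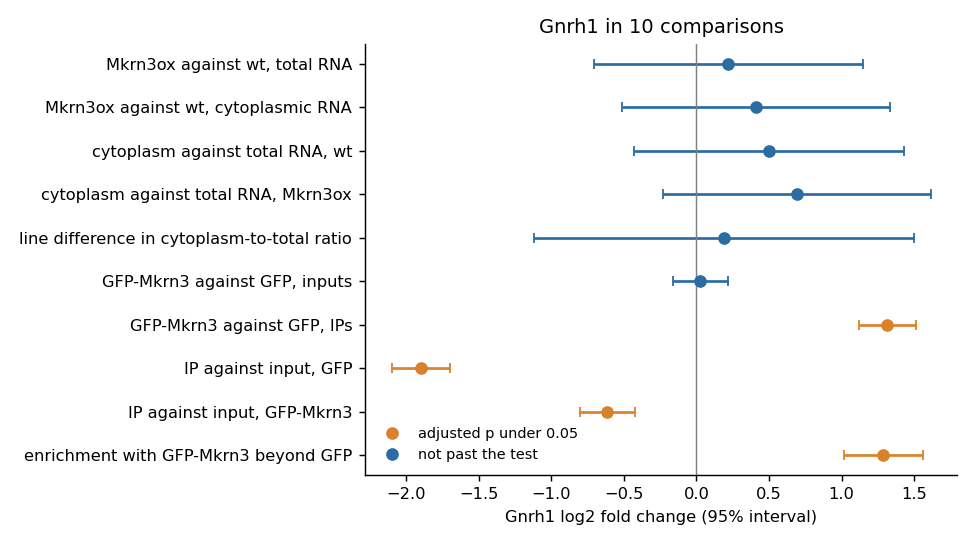
Log2 fold change of Gnrh1 (horizontal axis) in the 10 comparisons, with points for the estimates of edgeR and bars for their 95% intervals. The 5 fractionation intervals and the interval between the inputs span 0, while those of both pull-downs lie below 0 and those between the IPs and beyond GFP lie above it.

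Among genes of similar level the position of Gnrh1 was at the edge. The 200 tested genes nearest in input level (286 to 357 CPM) had a median log2 fold change of 0.16 in GFP IP against input, with 10th and 90th percentiles of -0.81 and 0.76, and 3 of the 200 were below Gnrh1. Among these, and named because they lie past Gnrh1 and so after their values were seen, were mt-Nd2, a mitochondrially encoded subunit of respiratory complex I, at -2.29, and S100a10, a partner of annexin A2, at -2.10. In the set 89 genes were called higher and 52 lower. In GFP-Mkrn3 IP against input the set had a median of -0.14 (-0.60 to 0.23), with 20 genes below Gnrh1 and 180 above, and 21 called higher and 71 lower. So Gnrh1 was nearer to the body of the set with GFP-Mkrn3 than with GFP.

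For the enrichment beyond GFP the same 200 genes had a median of -0.32 (-0.72 to 0.42), where all tested genes had a median of 0.04, with 22 called higher and 91 lower. Gnrh1, at 1.29, was above 197 of them. Among the 3 genes above it were Cryab, which encodes a small heat shock chaperone, at 2.17 (SE 0.316, edgeR adjusted p = 0.000151), and S100a10 at 1.42 (SE 0.126, adjusted p = 1.53e-06). In the GFP-Mkrn3 pull-down Cryab was at 0.46 against its input on the log2 scale, while S100a10 was at -0.68, close to the -0.61 of Gnrh1. Between the IPs, the set had a median of -0.27 (-0.67 to 0.37), and Cryab (2.13) and S100a10 (1.40) were the 2 of the 200 above Gnrh1. Genes of a set share the libraries, so no p is given.

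**Figure D4:**
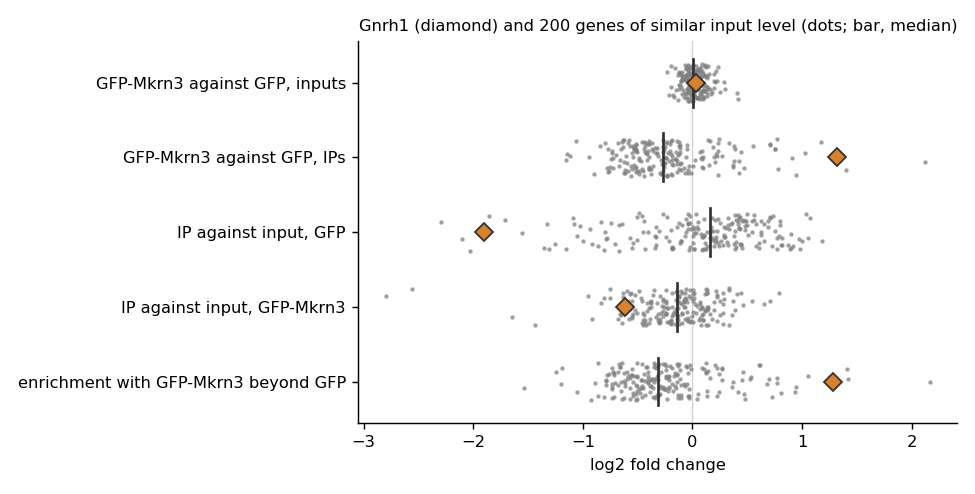
Log2 fold change (horizontal axis) of Gnrh1, drawn as a diamond, and of the 200 tested genes of similar input level, drawn as points, in the 5 RIP comparisons. Gnrh1 lies left of all but 3 genes in the GFP pull-down, right of 197 of the 200 beyond GFP, and within the cloud between the inputs.

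Gnrh1 was also set beside genes that GFP alone depleted alike, a set chosen after the data were seen. The 200 genes nearest to it in GFP IP against input had log2 fold changes of -2.14 to -1.72 there. In the GFP-Mkrn3 pull-down against its own input, which uses other libraries, their median was -0.47, with 10th and 90th percentiles of -1.10 and 0.36, where all tested genes had a median of 0.03. Of these genes 80 were below Gnrh1 and 120 above, with 3 called higher and 79 lower. Gnrh1 was thus in the middle of this set and was not set apart from it. The genes of the set were short in genomic span, with a median of 4370 bp over the 183 with a position, against 23178 bp over the other tested genes, and 80.5% were protein coding against 86.7%. Their median input level was 16.4 CPM, lower than the 28.9 CPM of the other genes.

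The 200 genes nearest to Gnrh1 in genomic span (4004 to 4550 bp), also a set chosen after the data were seen, had a median of -0.56 in the GFP pull-down, where all tested genes had -0.00, with 12 called higher and 103 lower. Of these, 8 were below Gnrh1. In the GFP-Mkrn3 pull-down their median was -0.05, with 21 below Gnrh1, and for the enrichment beyond GFP it was 0.50, with 78 called higher, 5 lower and 171 below Gnrh1. Genes of short span as a set had thus a higher median beyond GFP than the genes of similar level. A genomic span counts introns and is not the length of the mRNA.

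**Figure D5:**
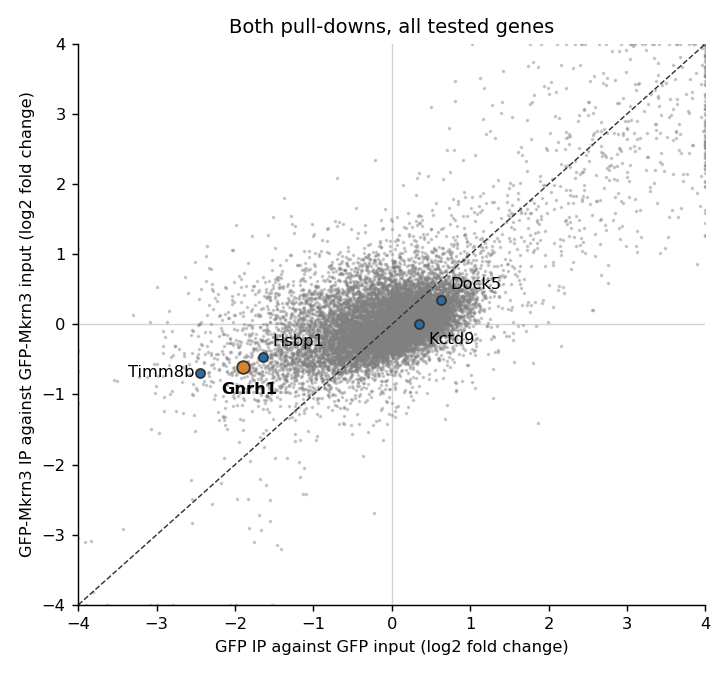
Log2 fold change of IP against input with GFP (horizontal axis) and with GFP-Mkrn3 (vertical axis) for all 13052 tested genes, with values beyond 4 in either direction drawn at the edge and the dashed line marking equal values. Gnrh1, at -1.90 and -0.61, lies left of the line near Hsbp1 and Timm8b, which were chosen for likeness to it over the same libraries. Its genomic neighbours Dock5 and Kctd9 lie right of the line.

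The genomic neighbours of Gnrh1 did not share its pattern. Dock5 stood at 200 ± 2.31 CPM in the GFP inputs (SD, n = 3) and was higher in the GFP IPs, with a log2 fold change of 0.63 (SE 0.0821, edgeR adjusted p = 4.35e-06). In the GFP-Mkrn3 pull-down it rose by 0.35 over its input (SE 0.0819, adjusted p = 0.00436), and between the IPs it was lower with GFP-Mkrn3 (log2 -0.40, SE 0.0814, adjusted p = 0.000782). Kctd9 rose by 0.35 with GFP (SE 0.108, adjusted p = 0.0116), a call that was lost with scaling by library size or without GFP input library 1 (adjusted p up to 0.0637 over the alternatives). With GFP-Mkrn3 Kctd9 was at 0.00 (adjusted p = 0.984).

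The genes most like Gnrh1 over the 12 RIP libraries, by Pearson correlation of log2 CPM, were Gm19705 (0.990), Timm8b (0.990), a chaperone of the mitochondrial intermembrane space, Commd3 (0.989), Hsbp1 (0.989), a heat shock factor binding protein, and Eif2b1 (0.989), a subunit of a translation initiation factor. The 12 points come from 4 groups and share their libraries, and 818 genes had a correlation above 0.9. All 5 were below input in both pull-downs and less so with GFP-Mkrn3. They were chosen for likeness to Gnrh1 over these same libraries, so the shared pattern follows from the choice and is no separate support. Timm8b was at -2.45 with GFP and -0.70 with GFP-Mkrn3, and Hsbp1 was at -1.65 and -0.46, on the log2 scale. Over the 12 fractionation libraries the closest were Ldhd (0.922) and Lars2 (0.902), the 2 genes with a correlation above 0.9.

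In the fractionation experiment no comparison of Gnrh1 passed the test, and the libraries of 2 of the 4 groups were widely spread. In wt total RNA it stood at 75.7, 69.2 and 87.1 CPM (42, 42 and 65 counts), and in total RNA labelled Mkrn3ox at 62.1, 68.1 and 139.7 CPM (34, 37 and 84 counts). The groups overlapped, and library 3 of those labelled Mkrn3ox was the high one. The means were 77.3 ± 9.07 and 89.99 ± 43.1 CPM (SD, n = 3), with a log2 fold change of 0.22 (SE 0.445, 95% interval -0.70 to 1.15; edgeR adjusted p = 0.857), where 7.39% of tested genes were called. Without Mkrn3ox total library 3 the log2 fold change was -0.26.

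In wt cytoplasm Gnrh1 stood at 28.5, 183 and 115 CPM, from 11, 86 and 42 counts, whose exact 95% Poisson intervals (counting error only) were 5.49 to 19.7, 68.8 to 106 and 30.3 to 56.8 counts. Library 1 was far below library 2, beyond these intervals, which take each count as a separate molecule. Over genes, these 2 libraries had a chi-square per degree of freedom of 5.78, so spread beyond such intervals was not particular to Gnrh1. Of the 200 genes of similar level in wt total RNA, 1 was lower than Gnrh1 in library 1 relative to the other 2 libraries, and the coefficient of variation of Gnrh1 in this group was 71.1% against a median of 33.1% for the set. It was also above the median of the set in total RNA labelled Mkrn3ox (47.9% against 24.7%), and below it in wt total RNA (11.7% against 27.5%) and in cytoplasm labelled Mkrn3ox (8.87% against 31.6%). In cytoplasm labelled Mkrn3ox the libraries stood close together at 160, 145 and 134 CPM (64, 57 and 64 counts). They lay inside the range of the wt libraries. The means were 109 ± 77.3 and 146 ± 13.0 CPM (SD, n = 3), and the log2 fold change was 0.41 (SE 0.444, 95% interval -0.51 to 1.34; edgeR adjusted p = 0.629), where 10.5% of tested genes were called. It was -0.045 without wt cytoplasm library 1 and 1.02 without wt cytoplasm library 2.

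Placement between fractions was measured as cytoplasmic against total RNA. Gnrh1 had a log2 ratio of 0.50 in wt cells (SE 0.448, 95% interval -0.43 to 1.43; edgeR adjusted p = 0.671), where 3.78% of tested genes were called, and of 0.69 in cells labelled Mkrn3ox (SE 0.443, 95% interval -0.23 to 1.61; adjusted p = 0.443), where 4.53% were called. In the latter, the cytoplasmic libraries spanned 134 to 160 CPM and the total RNA libraries 62.1 to 139.7 CPM, an overlap made by 1 library of total RNA. Without wt cytoplasm library 2 the wt ratio was -0.12, and without library 1 it was 0.94. The ratio in cells labelled Mkrn3ox was 1.17 without total library 3 and between 0.47 and 0.74 without any other of its libraries. The ratio did not differ detectably between the lines (log2 difference 0.19, SE 0.630, 95% interval -1.12 to 1.502; adjusted p = 0.947), where 0.219% of genes were called. Malat1, a long non-coding RNA known to stay in the nucleus, had a log2 ratio of -4.17 in wt (SE 0.614, edgeR adjusted p = 0.000165). In cells labelled Mkrn3ox it was -3.19 (SE 0.610, edgeR adjusted p = 0.00306), so the fractions differed in the counts of this gene. Malat1 had 9 counts over the 3 wt cytoplasm libraries and 10 over the 3 labelled Mkrn3ox. It stood at 135 CPM in wt total RNA and 5737 CPM in the GFP inputs, each scaled within its experiment. The strand of its fractionation counts was not tested. At 11 to 86 counts per library, differences in Gnrh1 smaller than these intervals were not detectable.

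Among the 200 genes of similar level in wt total RNA (69.8 to 102 CPM), Gnrh1 had the higher cytoplasm-to-total ratio against 170 in wt and against 179 in cells labelled Mkrn3ox. The medians of the set were -0.04 and -0.03, with 0 and 1 gene called higher and 12 and 10 lower. Of all tested genes 0.616% and 0.775% were called higher, and 3.16% and 3.76% lower. Between the lines the set had medians of -0.18 in total RNA and -0.19 in cytoplasm, with 147 and 153 genes below Gnrh1.

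Genes around Gnrh1 in its pathway were taken from 4 lists. For the maturation and breakdown of GnRH, 13 of 16 genes were tested in the RIP experiment. For the enrichment beyond GFP, 1 was called higher and 3 lower, with a median of -0.23, against 0.04 and the 13.2% and 11.1% of all tested genes. The higher one was Pcsk1n, which encodes the convertase inhibitor proSAAS, at 1.40 (SE 0.345, edgeR adjusted p = 0.00673). The lower ones were Prep, a prolyl peptidase, at -0.63 (SE 0.126, adjusted p = 0.00163), Cpd, a carboxypeptidase that trims basic residues, at -0.59 (SE 0.114, adjusted p = 0.00128), and Pam, the amidating enzyme, at -0.34 (SE 0.115, adjusted p = 0.0396). The call of Pam was lost in 12 of 19 alternatives (adjusted p up to 0.336). In cytoplasmic RNA, 3 of the 7 tested members were called lower in cells labelled Mkrn3ox and none higher, among them Cpd at -1.78 (SE 0.311, adjusted p = 0.000614), where 6.14% of all tested genes were called lower. In total RNA 1 of the 7 was called higher and 0 lower, where 3.56% of all tested genes were called higher. That gene was Pam, at 1181 ± 193 CPM in wt and 2850 ± 108 CPM in cells labelled Mkrn3ox (SD, n = 3; log2 1.27, SE 0.162, edgeR adjusted p = 1.66e-05). In cytoplasmic RNA Pam was at 0.17 (SE 0.160, adjusted p = 0.585). Its cytoplasm-to-total ratio differed between the lines by -1.10 (SE 0.227, edgeR adjusted p = 0.0367), where 0.219% of tested genes were called. Cpd in total RNA was at -0.05 (SE 0.291, edgeR adjusted p = 0.949). Pcsk1, the convertase known to cut many neuropeptide precursors, had 0 counts in all 24 libraries, which cannot tell absence from a level below this depth.

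Of 30 factors known from the Gnrh1 promoter, 21 were tested in the RIP experiment, and 5 were called higher and 5 lower beyond GFP, with a median of 0.27, beside 13.2% higher, 11.1% lower and a median of 0.04 over all tested genes. The 4 named here, chosen by the smallest adjusted p over the comparisons of cytoplasm, IPs and enrichment beyond GFP, were all higher beyond GFP. They are homeodomain factors except Egr1, an immediate early zinc-finger factor. Lhx2 was at 1.19 (SE 0.258, edgeR adjusted p = 0.00275) and Dlx5 at 0.84 (SE 0.168, adjusted p = 0.00156). Egr1 was at 0.90 (SE 0.264, adjusted p = 0.0187) and Six6 at 0.66 (SE 0.207, adjusted p = 0.0264), and their calls were lost in 3 and 6 of 19 alternatives, with adjusted p up to 0.0528 and 0.0787. In cytoplasmic RNA Egr1 was called lower in cells labelled Mkrn3ox (log2 -2.48, SE 0.623, edgeR adjusted p = 0.0126). The call was lost without wt cytoplasm library 3 or Mkrn3ox cytoplasm library 2 or 3 (adjusted p up to 0.0578). In total RNA Egr1 went the other way, at log2 1.76 (SE 0.682, edgeR adjusted p = 0.143), without passing the test. Egr1 in wt stood at 81.1 CPM in cytoplasm and 5.18 CPM in total RNA, the latter on 10 counts over 3 libraries. Of 25 receptors and puberty genes of GnRH neurons, 8 were tested, and 0 were called higher and 4 lower beyond GFP, with a median of -0.41, beside the same 13.2% and 11.1% of all tested genes. The 4 were the semaphorin co-receptors Nrp2 (-0.72, adjusted p = 0.000431) and Nrp1 (-0.71, adjusted p = 0.000318), and the growth factor receptors Igf1r (-0.44, adjusted p = 0.0186) and Insr (-0.39, adjusted p = 0.0371), of which Igf1r and Insr lost the call in 3 and 11 of 19 alternatives (adjusted p up to 0.155 and 0.293).

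Of 28 other secreted peptides and granins, 3 (Vgf, Nucb2 and Bdnf) were tested in the RIP experiment, and 0 of the 3 was called beyond GFP in either direction. In the fractionation experiment 1 was tested, Ptn, a heparin-binding growth factor, which was higher in cytoplasm labelled Mkrn3ox (log2 3.45, SE 0.265, edgeR adjusted p = 1e-08), where 4.31% of all tested genes were called higher. In total RNA the difference was larger, from 4.09 ± 1.11 CPM in wt, on 8 counts over 3 libraries, to 610.1 ± 52.8 CPM (SD, n = 3; log2 7.11, SE 0.350, adjusted p = 5.48e-12). The line difference in its cytoplasm-to-total ratio was -3.66 (SE 0.468, edgeR adjusted p = 0.000497). It came from wt cells, with a log2 ratio of 3.60 (SE 0.404, edgeR adjusted p = 8.05e-06), against -0.06 in cells labelled Mkrn3ox (SE 0.221, adjusted p = 0.924). The wt ratio rests on the 8 counts of wt total RNA. In the RIP inputs Ptn had 0 counts with GFP and 1 with GFP-Mkrn3, over 3 libraries each.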

How the data were processed

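Per the submitters' processing notes, cutadapt, STAR, HTSeq and mm10 were used. Not given in the sources used are versions, annotation, strand setting and handling of molecular identifiers. The authors deposited raw counts per gene. All 24 libraries in 8 groups and all gene rows entered. The RIP table carries identifiers, joined to the gene names of the other table.

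The 2 experiments had separate fits in edgeR 4.0.16 (R 4.3.3): TMM scaling, filterByExpr by group (5033 and 13052 genes kept), group means, and the two-sided quasi-likelihood F test with Benjamini-Hochberg adjustment over all tested genes, called at an adjusted p under 0.05. There were 10 comparisons. Each SE was derived from the test, as the absolute log2 fold change over the square root of its F statistic. The 95% intervals are the estimate plus or minus this SE times a t quantile, and are approximate. Log2 CPM used a prior count of 2. DESeq2 1.42.0 was an alternative, limma 3.58.1 a dependency, and Python 3.11.15, numpy 2.4.6, pandas 2.3.3, scipy 1.17.1 and matplotlib 3.10.9 described and drew. Positions came from RefSeq (GRCm38.p6), with neighbours within 5 kb.

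Named genes were Gnrh1, Mkrn3, Malat1, neighbours, the 4 nearest in input level, the most alike, genes past Gnrh1 in its set of 200 (chosen after their values were seen; 1 of these is not reported here), and up to 4 called members of each list. Gnrh1, the lists and the comparisons were chosen with earlier results of these data known. The fits were tested on simulated data. Alternatives were other scalings (DESeq2 size factors, library size), no filter, a mean of at least 20 counts, the compared groups alone, a replicate block and leaving out each library. Common-dispersion estimates gave a biological coefficient of variation of 0.384 and 0.115, and the lower depth of the fractionation experiment limits its precision.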

Additional observations from a re-analysis of the deposited data

Results flagged for a closer look

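The IP-to-input ratio of Gnrh1 differed between the plasmids by the test of the difference itself: enrichment beyond GFP was 1.29 on the log2 scale (edgeR adjusted p = 5.14e-06), and each of the 3 GFP-Mkrn3 IPs stood above each of the 3 GFP IPs. In this test 13.2% of tested genes were called higher and 11.1% lower, and Gnrh1 ranked 741 of 13052 from the top. The share of genes whose IPs separate in this way was not counted. Gnrh1 was below its input in both pull-downs, at -1.90 with GFP and -0.61 with GFP-Mkrn3.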

How the results depend on the processing

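The 4 called comparisons of Gnrh1 kept their direction and call in every alternative run. The log2 fold change between the IPs was 1.29 to 1.49 (leaving out 1 library: 1.25 to 1.39), with GFP -2.01 to -1.88 (-1.98 to -1.84), with GFP-Mkrn3 -0.62 to -0.53 (-0.65 to -0.57) and beyond GFP 1.27 to 1.48 (1.22 to 1.36), with adjusted p up to 2.81e-05, 4.62e-09, 0.0016 and 6.23e-05. None of the other 6 passed the test in any alternative (adjusted p 0.242 to 1.0), but leaving out 1 library gave -0.26 to 0.43 in total RNA, -0.045 to 1.02 in cytoplasm, -0.12 to 0.94 for the wt ratio, 0.47 to 1.17 for the ratio in cells labelled Mkrn3ox, -0.26 to 0.80 for the ratio difference (-0.026 without Mkrn3ox total library 1) and -0.037 to 0.088 between the inputs (-0.019 without GFP-Mkrn3 input library 1). The lowest values of the 5 comparisons that changed sign came without Mkrn3ox total library 3, wt cytoplasm library 1, wt cytoplasm library 2, wt cytoplasm library 1 and GFP input library 2, in that order. The numbers of genes called ranged from 234 to 481 (372 as reported), 355 to 696 (526), 128 to 269 (190), 125 to 318 (228), 8 to 43 (11), 1 to 34 (2), 3902 to 5640 (4907), 5804 to 6720 (6565), 2385 to 4576 (3487) and 2315 to 4359 (3178), in the order of comparisons in the plot of log2 fold changes. The largest shifts were 43 without a filter and 42 by DESeq2 for the ratio difference (35 without wt total library 1), and 34 without a filter, 6 by DESeq2 and 4 in a fit of the compared groups alone for the inputs. In total RNA 238, 234, 236 and 235 genes were called without wt total library 3 and Mkrn3ox total libraries 1, 2 and 3. For the ratio in cells labelled Mkrn3ox it was 125 without total library 1 and 137, 142 and 146 without cytoplasm libraries 1, 2 and 3. Higher and lower calls moved with library-size scaling from 179 and 193 to 252 and 163 in total RNA, from 217 and 309 to 507 and 189 in cytoplasm and from 4 and 7 to 8 and 6 for the ratio difference. That scaling moved the median of all genes to 0.38 in cytoplasm, -0.22 for the wt ratio and 0.27 for the ratio difference. The share of the similar-level set below Gnrh1 moved with the set size: 82.0% with 100 genes in cytoplasm (76.5% with 200), 0.0% in the GFP pull-down (1.5%), 4.0% in the GFP-Mkrn3 pull-down (10.0%), and with 400 genes 99.5% between the IPs (99.0%) and 99.2% beyond GFP (98.5%). By library size the GFP-Mkrn3 IP level was 221 CPM. Whether libraries of the same replicate number belong together is not known. Correlations of deviations between same-number libraries were -0.067 to 0.039 in the fractionation and -0.146 to 0.238 in the RIP experiment. Of 18 in each, 0 and 2 were over 0.1. In either experiment, 0 of the 12 libraries correlated best with their own number in every other group. Counting noise also lowers such correlations, so they cannot exclude a pairing. With the replicate block across groups, Gnrh1 was at 0.17, 0.55, 0.40, 0.77, 0.38, 0.03, 1.32, -1.90, -0.61 and 1.29, and no call of Gnrh1 changed. The set by transcript length was not run, because the table used here gives genomic span.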
